A study of Mus musculus with 4 samples.

Results

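Cdkn2a, Cdkn2b and Mtap lie side by side on mouse chromosome 4 and were taken by their Entrez identifiers. They are 3 of 26286 genes in the count table, and each had enough reads to enter the test, which covered 14912 genes. RNA was sequenced from LSK cells of C57BL/6 bone marrow, a sorted fraction without mature lineage markers that holds blood stem cells and early progenitors. The 4 libraries form 2 groups by title and genotype: 2 are labelled Hhex-deleted (Hhex is a homeobox transcription factor) and 2 wild-type. The series title places Cdkn2a downstream of Hhex in stem cell self-renewal, so the comparison asks how this locus is transcribed with and without Hhex. The deleted exons, any Cre driver or inducing agent, the age of the animals, and whether each library is a mouse of its own are not stated, so p-values cover only the variation among these libraries, which may be technical.

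Library totals were 29501591 and 29372938 counts in libraries labelled as Hhex-deleted and 27871827 and 28584399 in wild-type ones. Hhex itself averaged 183 ± 6.06 CPM (reads scaled to library size) in libraries labelled as Hhex-deleted and 121 ± 8.62 CPM in wild-type ones (SD, n = 2 each), a log2 fold change of 0.60 ± 0.09 (SE, adjusted p = 0.0271 by edgeR). A gene-level count includes exons outside a deletion and so does not check the labels, and directions refer to libraries as labelled. Labelled Hhex-deleted replicate 1 had 2662 CPM of the X-inactivation transcript Xist and 0.343 CPM of the Y-linked gene Ddx3y, against Xist at 1.89 to 2.66 CPM and Ddx3y at 124 to 138 CPM in the other libraries. The results for the 3 genes are therefore also given without that library. The Hhex call was lost when a wild-type library was left out (0.0575 for replicate 1 and 0.148 for replicate 2, edgeR adjusted p) and with the replicate number as a block (0.0518). The sort markers Kit (566 to 698 CPM) and Ly6a (20.7 to 42.5 CPM) were read in every library, and none of 8 markers of the sort and its subsets was absent.

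The Ink4 proteins bind the cyclin-dependent kinases Cdk4 and Cdk6 and keep them from pairing with D-type cyclins, so that the retinoblastoma proteins stay active and cells do not enter S phase. Cdkn2a encodes Ink4a and, from another first exon and another reading frame, Arf, which frees p53 by binding its ubiquitin ligase Mdm2. Cdkn2b encodes Ink4b, a relative of Ink4a known as a target of TGF-beta signalling. Mtap encodes methylthioadenosine phosphorylase, an enzyme that returns a by-product of polyamine synthesis to methionine, and is often lost together with its neighbours in tumours. In young blood stem cells Cdkn2a and Cdkn2b are known to be kept silent, chiefly by Polycomb complexes.

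In the GENCODE M21 annotation (GRCm38), Cdkn2a has 2 coding transcripts of 852 and 895 bases, Ink4a and Arf, which share exon 2. The first 60 bases of this exon (GRCm38, chr4:89276926-89276985, minus strand) are shown because the same DNA is read in 2 frames, with the first base of each codon in capitals. Ink4a brings 126 coding bases from its own first exon, a whole number of codons, while Arf brings 190, which leaves 1 base over.
Ink4a frame: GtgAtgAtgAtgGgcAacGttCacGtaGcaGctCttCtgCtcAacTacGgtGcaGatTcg
Arf frame: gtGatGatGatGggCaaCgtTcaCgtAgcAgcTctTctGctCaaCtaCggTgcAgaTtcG
The gene length in the count table, 1136 bases, is longer than either transcript and near the 1172 bases that both cover together. A read in the shared exon can come from either transcript, so the counts do not separate Ink4a from Arf.

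The sequence upstream of each start is shown because Ink4a, Arf and Cdkn2b each have a start of their own, which gene counts cannot resolve for Ink4a and Arf. All 3 genes were found in RefSeq's promoter table (GRCm38.p6). Each window ends at the RefSeq start, less any base that GENCODE places in a first exon. Capitals mark a match to one of 8 motifs searched on both strands over the 250 bases before the RefSeq start. These were the GC box (GGGCGG), the CCAAT box (CCAAT), the cAMP response element (TGACGTCA), an E2F site (GGCGGGAA), an E-box (CACGTG), the TATA box (TATAAA), a homeobox core (TAATTA) and the core of the Hhex consensus (ATTAAA). A GC box and an E2F site can overlap, since both hold GGCGG.
Arf start (chr4:89294654-89294869, minus strand): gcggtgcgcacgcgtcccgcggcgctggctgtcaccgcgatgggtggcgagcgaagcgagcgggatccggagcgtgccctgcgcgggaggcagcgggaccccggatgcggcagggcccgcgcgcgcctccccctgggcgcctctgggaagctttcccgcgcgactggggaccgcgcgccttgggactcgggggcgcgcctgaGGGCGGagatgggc
Ink4a start (chr4:89282193-89282442, minus strand): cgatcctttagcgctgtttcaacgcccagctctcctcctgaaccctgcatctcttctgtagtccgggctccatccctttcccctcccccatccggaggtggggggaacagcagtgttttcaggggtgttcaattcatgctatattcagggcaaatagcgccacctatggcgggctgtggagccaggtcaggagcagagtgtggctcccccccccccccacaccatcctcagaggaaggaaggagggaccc
Cdkn2b start (chr4:89311040-89311282, minus strand): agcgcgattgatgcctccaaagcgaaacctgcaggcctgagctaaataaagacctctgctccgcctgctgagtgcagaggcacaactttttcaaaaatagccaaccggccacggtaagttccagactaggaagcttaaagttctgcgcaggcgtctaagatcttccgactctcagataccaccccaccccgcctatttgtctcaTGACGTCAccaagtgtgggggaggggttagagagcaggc
The Arf window was the richest of these in G and C, with 78.4% over its 250 bases and 40 CpG pairs, more than 98.7% of 32817 promoter windows. The Ink4a window had 7 CpG pairs and the Cdkn2b window 12, with more G and C than 72.1% and 53.9% of all windows. The Arf window held GC boxes 48 and 14 bases before the start, the second of them in the part not shown, a motif found in 32.7% of all windows. The Cdkn2b window held a cAMP response element 46 bases before the start, found in 1.55% of all windows, and the Ink4a window held none of the 8 motifs. GENCODE places 248 of the 250 bases before the RefSeq start of Mtap inside its first exon, so that window is not shown. It held an E2F site 57 bases and a CCAAT box 17 bases before the start, found in 1.85% and 33.8% of all windows. Homeobox and Hhex cores were in none of the 4 windows and in 4.85% and 12.7% of all windows.

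All 3 genes were higher in libraries labelled as Hhex-deleted. Cdkn2a and Cdkn2b reached a low level there, against almost no reads in wild-type, and Mtap was 1.49-fold above an already high wild-type level. Of all tested genes, 1.48% were called higher and 2.6% in either direction by edgeR, at a threshold of 0.05 on the adjusted p.

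Cdkn2a had 30 and 27 reads in libraries labelled as Hhex-deleted, against 1 and 2 reads in wild-type ones. As CPM these were 1.03 and 0.896 in libraries labelled as Hhex-deleted, with 95% counting intervals of 0.693 to 1.47 and 0.590 to 1.30, and 0.0365 and 0.0700 in wild-type ones, with upper limits of 0.203 and 0.253. The groups did not overlap, nor did the counting intervals of any pair of libraries across groups. The pooled reads gave a ratio of 17.9 (95% interval 5.83 to 89.5, counting error only). The fitted log2 fold change was 4.06 ± 0.55 (SE), with a 95% interval of 2.71 to 5.41 and an edgeR adjusted p of 0.0239. In bulk RNA of sorted cells, more cells that express a gene and more RNA per cell cannot be told apart.

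Cdkn2b, which is not listed in the deposited log2 RPKM tables, had 18 and 23 reads in libraries labelled as Hhex-deleted, against 1 and 0 reads in wild-type ones. The levels were 0.617 and 0.763 CPM in libraries labelled as Hhex-deleted (counting intervals 0.365 to 0.974 and 0.484 to 1.14) and 0.0365 and 0 CPM in wild-type ones, with upper limits of 0.203 and 0.129 CPM. Again no library labelled Hhex-deleted overlapped a wild-type one. The pooled ratio was 38.7 (95% interval 6.56 to 1565), so that its size is known only within a wide range. The fitted log2 value of 4.97 ± 0.82 (SE), at an edgeR adjusted p of 0.04, rests on 1 wild-type read and varies with the prior count. RefSeq lists a long non-coding RNA, Gm12610, across Cdkn2b. It has no row in the count table, and the TruSeq RNA kit named in the labels does not mark strand, so reads of both could not be told apart where their exons meet.

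Both genes passed the low-count filter only through the libraries labelled Hhex-deleted. A gene with so few wild-type reads could enter the test only if it differed, with no overlap between groups. Among all 17 tested genes with at most 3 reads over both wild-type libraries, a limit set after the counts of Cdkn2a and Cdkn2b were seen, 8 (47.1%) were called higher. In the other direction, 2 tested genes had at most 3 reads over both libraries labelled Hhex-deleted, and 0 of them were called lower.

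Cdkn2a made up 62.5% of the reads of the pair in labelled Hhex-deleted replicate 1 (exact 95% interval 47.4 to 76.0%) and 54.0% in replicate 2 (39.3 to 68.2%). These intervals overlap and include an even split. Per gene length, Cdkn2a stood 2.04 and 1.44 times above Cdkn2b in these 2 libraries. With 2 reads of the pair in each wild-type library, no share could be set there. The Ink4a transcript and that of Cdkn2b were 78.1% identical over 342 aligned bases, and the longest run without a difference was 23 bases.

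**Figure D1:**
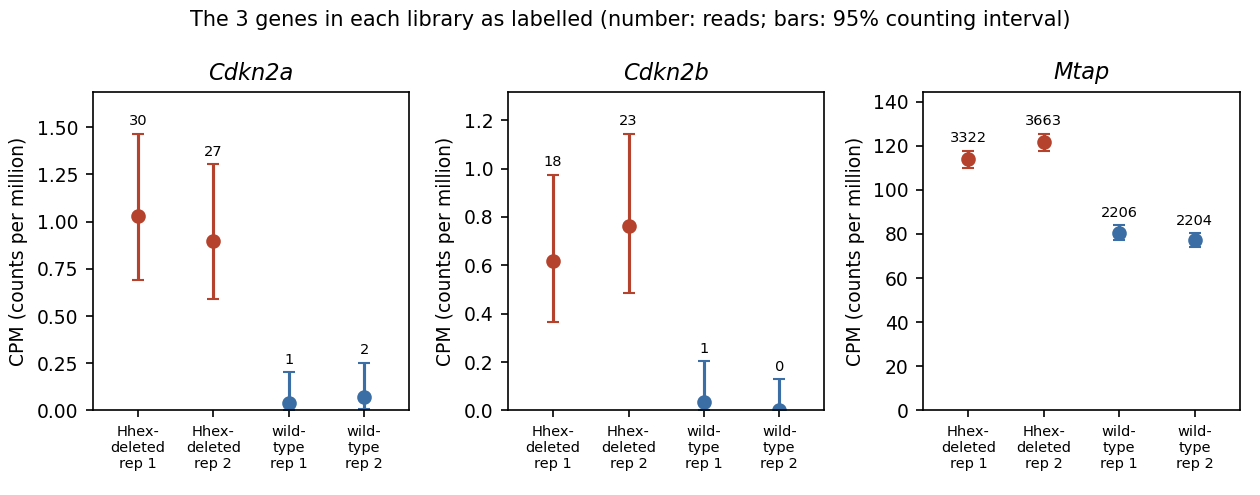
Level of each gene in CPM (vertical axes, from 0) in the 4 libraries, with the number of reads above each point and bars for the 95% counting interval. Both libraries labelled Hhex-deleted lie above both wild-type libraries for each gene, with 18 to 30 reads against 0 to 2 for Cdkn2a and Cdkn2b, and 3322 and 3663 reads against 2206 and 2204 for Mtap.

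Mtap was well read in every library. It had 3322 and 3663 reads in libraries labelled as Hhex-deleted, against 2206 and 2204 reads in wild-type ones. Its mean was 118 ± 5.44 CPM in libraries labelled as Hhex-deleted and 78.8 ± 2.35 CPM in wild-type ones (SD, n = 2 each), with no overlap. The log2 fold change was 0.58 ± 0.08 (SE), a 1.49-fold difference with a 95% interval of 1.31 to 1.70 and an edgeR adjusted p of 0.0227. A difference of this size was not rare, since 1006 tested genes (6.75%) had a log2 fold change at least as high, against 32 genes for Cdkn2a and 15 for Cdkn2b. Of the 4467 tested genes with a mean CPM within 2-fold of Mtap, 41 (0.918%) were called higher. A lack of overlap between groups was common, at 45.5% of all tested genes, a share against which that of Mtap is to be read. For Cdkn2a and Cdkn2b it followed from the low-count filter, given so few wild-type reads, and is no separate support.

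Levels between genes are comparable only per length, here as RPKM, which scales reads to gene length and library size. Cdkn2a stood at 0.905 and 0.788 RPKM in libraries labelled as Hhex-deleted, and 0.0321 and 0.0616 RPKM in wild-type ones. Among tested genes its level lay at percentiles 15.2 and 13.2 in libraries labelled as Hhex-deleted, and 0.523 and 0.919 in wild-type ones. Cdkn2b lay lower, at 0.443 and 0.548 RPKM in libraries labelled as Hhex-deleted, percentiles 9.44 and 10.4, and at 0.0262 and 0 RPKM in wild-type ones. So after the rise both genes still belonged to the weakly expressed part of the transcriptome. Mtap stood at 44.5 and 47.5 RPKM in libraries labelled as Hhex-deleted (percentiles 83.7 and 85.8) and 31.5 and 30.2 RPKM in wild-type ones (76.6 and 75.9). In libraries labelled as Hhex-deleted this was 49.2 and 60.2 times the RPKM of Cdkn2a. A processed pseudogene, Gm12607, lies across Mtap on the opposite strand and has no row in the count table.

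The related inhibitor genes Cdkn2c and Cdkn2d, which encode Ink4c and Ink4d and lie outside this locus, were read at higher levels in all libraries. Cdkn2c stood at 21.4 and 26.2 RPKM in libraries labelled as Hhex-deleted and 18.6 and 23.0 RPKM in wild-type ones. Cdkn2d stood at 18.8 and 16.5 RPKM in libraries labelled as Hhex-deleted and 17.9 and 15.4 RPKM in wild-type ones. Neither passed the test, and both groups overlapped for each. The order of RPKM levels was Mtap, Cdkn2c, Cdkn2d, Cdkn2a and Cdkn2b in each library labelled Hhex-deleted, with no overlap between neighbours in this order and no test of it. Cdkn2a and Cdkn2b together were 3.25% and 3.03% of the summed RPKM of the 4 Ink4 genes in libraries labelled as Hhex-deleted, and 0.160% in each wild-type library.

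**Figure D2:**
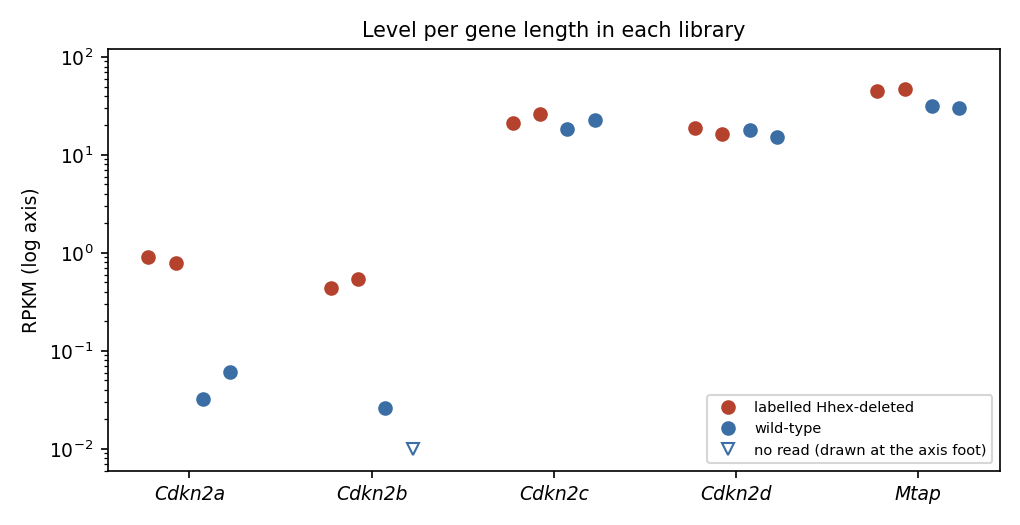
RPKM per library (log axis) of the 4 Ink4 genes and Mtap, labelled Hhex-deleted left of wild-type for each gene. Cdkn2a and Cdkn2b stay under 1 RPKM in every library, while Cdkn2c and Cdkn2d lie between 15.4 and 26.2 RPKM with overlapping groups, and Mtap between 30.2 and 47.5 RPKM.

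The authors' log2 RPKM tables, which hold 12662 genes, give Mtap 5.54 and 5.68 in libraries labelled as Hhex-deleted and 5.04 and 4.99 in wild-type ones. For Cdkn2a they give -0.03 and -0.34 in libraries labelled as Hhex-deleted. Both wild-type libraries carry the same value, -3.81, although their reads differed. Tested with limma on these values, the log2 difference was 3.63 for Cdkn2a (adjusted p = 0.0365) and 0.60 for Mtap (adjusted p = 0.043). The equal wild-type values hold no spread for Cdkn2a, so its adjusted p here does not measure the difference between wild-type libraries.

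The chromosomal neighbours were the 5 nearest tested genes on either side, by gene order. Across all tested genes edgeR called 1.48% higher and 2.6% in either direction. Of the 10 neighbours 1 was called higher and none lower. That gene, Mllt3, a chromatin reader and cofactor known to maintain blood stem cells, had 46.3 and 52.2 CPM in libraries labelled as Hhex-deleted and 32.6 and 29.1 CPM in wild-type ones, a log2 difference of 0.68 ± 0.11 (SE) and an adjusted p of 0.0361 by edgeR. Its call was lost with limma-voom (adjusted p = 0.0652) and in edgeR when labelled Hhex-deleted replicate 2 (0.0761) or a wild-type library (0.0658 for replicate 1, 0.168 for replicate 2) was left out.

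Mllt3 lies on the Mtap side, with Focad, Hacd4 and Klhl9 between them. Focad, a gene for a focal adhesion protein, had a log2 difference of 0.33 ± 0.08 (SE) and an adjusted p of 0.112 by edgeR, while Hacd4 (0.02) and Klhl9 (-0.03), a substrate adaptor of a ubiquitin ligase and the tested gene next to Mtap, were near 0. Beyond Mllt3, Acer2 stood at -0.08. On the Cdkn2b side the log2 fold changes were 0.03 for Gm12669, -0.20 for Tusc1, 0.02 for Caap1, 0.01 for Plaa and 0.36 for Gm12657, the last with a 95% interval of -0.23 to 0.95. The intervals of Klhl9 (-0.33 to 0.26) and Gm12669 (-0.15 to 0.21), which flank the 3 genes, lie below the whole interval of Mtap. Besides the 3 genes the count table lists 51 genes over this stretch, these 10 included, and the other 41 were too weakly read to be tested, 25 of them without any read.

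**Figure D3:**
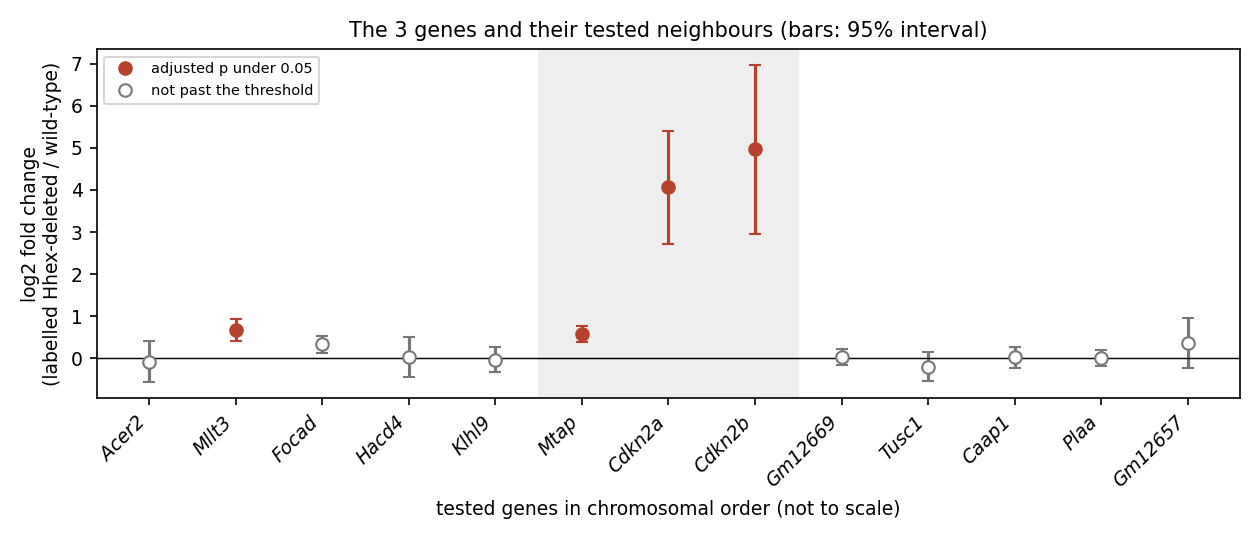
Log2 fold change of labelled Hhex-deleted over wild-type (vertical axis, bars for 95% intervals) for the 3 genes (shaded) and 5 tested neighbours on either side, in chromosomal order and not to scale. Filled points passed the test: Cdkn2a and Cdkn2b stand at 4.06 and 4.97, Mtap at 0.58 and Mllt3 at 0.68.

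The genes of the pathway were grouped by their place around the locus, 8 lists in all. Across all tested genes the median log2 fold change was -0.005. By edgeR 2.6% of them were called in either direction, the share against which calls in the lists are to be read. An unadjusted p under 0.05 was found for 2360 of 14912 (15.8%), the share for the lists' counts of such p-values. Among the other 5 kinase inhibitors none passed edgeR's test, none had an unadjusted p under 0.05, and neither DESeq2 nor limma-voom called any. Cdkn1c, which encodes an inhibitor known to keep stem cells quiescent, had 1.27 and 3.12 CPM in libraries labelled as Hhex-deleted and 3.47 and 4.38 CPM in wild-type ones. The p53 target Cdkn1a had 32.7 and 16.0 CPM in libraries labelled as Hhex-deleted and 56.1 and 15.7 CPM in wild-type ones, so its libraries varied more within groups than between them.

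The next list held 8 genes: the D-type cyclins, Cdk4 and Cdk6, which Ink4 proteins bind, and the retinoblastoma family. Of these 1 was called lower (12.5%, against 2.6% of all tested genes called in either direction) and none higher. That gene was Ccnd1, which encodes a D-type cyclin, with 2.91 and 5.64 CPM in libraries labelled as Hhex-deleted and 30.5 and 32.0 CPM in wild-type ones (log2 fold change -2.87 ± 0.32 SE, edgeR adjusted p = 0.0226). Leaving out wild-type replicate 1 or replicate 2 ended this call (edgeR adjusted p = 0.0679 and 0.111). The other D-type cyclins, Ccnd2 (219 ± 51.8 CPM in libraries labelled as Hhex-deleted and 218 ± 11.2 CPM in wild-type ones, SD, n = 2 each) and Ccnd3 (log2 fold change 0.04), did not pass. The kinase genes Cdk4 and Cdk6 had log2 fold changes of -0.04 (95% interval -0.25 to 0.16) and -0.05 (-0.24 to 0.14). Rb1, Rbl1 and Rbl2, the retinoblastoma family, stood at 0.17, 0.03 and 0.07.

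Of 18 E2F target genes, which retinoblastoma proteins hold back, none passed edgeR's test, 1 had an unadjusted p under 0.05, and neither DESeq2 nor limma-voom called any. The list's median log2 fold change was 0.024, with a range of -0.34 to 0.25. The lowest was Mybl2, a cell-cycle transcription factor gene, with 48.6 and 42.3 CPM in libraries labelled as Hhex-deleted and 58.9 and 56.2 CPM in wild-type ones (edgeR adjusted p = 0.151). Cdt1 (-0.16) and Mcm6 (0.15), which license replication origins, and Rrm2 (-0.22), a subunit of ribonucleotide reductase, had smaller differences.

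On the Arf side, none of 23 genes of the Mdm2 and p53 axis passed edgeR's test, 2 (8.7%, against 15.8% of all) had an unadjusted p under 0.05, DESeq2 called 1 and limma-voom 0. The median was 0.072, with a range of -0.89 to 0.89. At the upper end, the p53 target Trp53inp1 had 49.2 and 75.1 CPM in libraries labelled as Hhex-deleted and 31.0 and 35.9 CPM in wild-type ones (edgeR adjusted p = 0.139). It passed DESeq2's test (adjusted p = 8.05e-04) but not limma-voom (0.155) or limma on log2 RPKM (0.174). Nor did it pass edgeR with the replicate block (adjusted p = 0.0559) or with no low-count filter (0.182). With a library left out its log2 fold change ran from 0.56 to 1.17. Ccng1, another p53 target, stood at 0.25 ± 0.08 (SE), the p53 inhibitor gene Mdm4 at 0.15 and the ubiquitin ligase gene Huwe1, whose product Arf binds, at 0.15.

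Upstream of the locus, none of 18 Polycomb genes passed edgeR's test, 3 (16.7%, against 15.8% of all) had an unadjusted p under 0.05, DESeq2 called 1 and limma-voom 0. The median was 0.069. Pcgf2, which encodes a core subunit of Polycomb complexes, had 9.46 and 11.4 CPM in libraries labelled as Hhex-deleted and 17.6 and 17.7 CPM in wild-type ones, with a log2 difference of -0.76 ± 0.15 (SE) and an adjusted p of 0.0651 by edgeR. It was called lower by DESeq2 (adjusted p = 0.00853) and by edgeR with no low-count filter (adjusted p = 0.0447). Its relative Bmi1, a well known repressor of Cdkn2a in blood stem cells, had 81.6 and 95.2 CPM in libraries labelled as Hhex-deleted and 79.2 and 69.4 CPM in wild-type ones, without passing. Phc2, which encodes another subunit of Polycomb complexes, stood at 0.27.

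Of 22 other regulators of the locus 19 were tested, none passed edgeR's test, 5 (26.3%, against 15.8% of all tested genes) had an unadjusted p under 0.05, DESeq2 called 2 and limma-voom 0. The repressors Tbx2, Tbx3 and Twist1 had at most 6 reads in a library and were not tested. Hmga2, a chromatin protein gene known from neural stem cells to keep Cdkn2a low, had the widest difference, with 60.2 and 75.7 CPM in libraries labelled as Hhex-deleted and 19.6 and 8.37 CPM in wild-type ones. Its log2 fold change was 2.28 ± 0.50 (SE) at an adjusted p of 0.178 by edgeR. The wild-type libraries differed from each other, and with a library left out the Hmga2 log2 fold change ran from 1.80 to 3.02. DESeq2 called it higher (adjusted p = 0.00341). It was not called with limma-voom (adjusted p = 0.0543) or limma on log2 RPKM (0.15). Nor was it called by edgeR with the replicate block (adjusted p = 0.0875) or with no low-count filter (0.305). Foxo3, a stress response factor gene of stem cells, stood at 0.32 ± 0.07 (SE, edgeR adjusted p = 0.0911) and was called by DESeq2 (adjusted p = 0.0402). The activator gene Ets2 stood at -0.43 and Id1, which encodes an antagonist of E proteins, at -1.05.

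Of 16 genes of the TGF-beta arm 15 were tested, none passed edgeR's test, 2 had an unadjusted p under 0.05, and neither DESeq2 nor limma-voom called any. Myc, a repressor of Cdkn2b, had 415 and 415 CPM in libraries labelled as Hhex-deleted and 312 and 366 CPM in wild-type ones (edgeR adjusted p = 0.21). The Smad antagonist gene Ski stood at -0.36 ± 0.09 (SE), the receptor gene Tgfbr2 at 0.27 and Smad4 at 0.19. Around Mtap, none of 12 genes of methionine salvage and polyamine synthesis passed edgeR's test, 1 had an unadjusted p under 0.05, and neither DESeq2 nor limma-voom called any. Their median was -0.015 and their range -0.25 to 0.13. Enoph1, the salvage enzyme gene at the lower end, had 41.8 and 42.5 CPM in libraries labelled as Hhex-deleted and 50.1 and 50.2 CPM in wild-type ones. The spermidine synthase gene Srm stood at -0.19, Mat2a, which makes the methyl donor from methionine, at 0.13, and Prmt5, an arginine methyltransferase that the Mtap substrate inhibits, at 0.13.

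**Figure D4:**
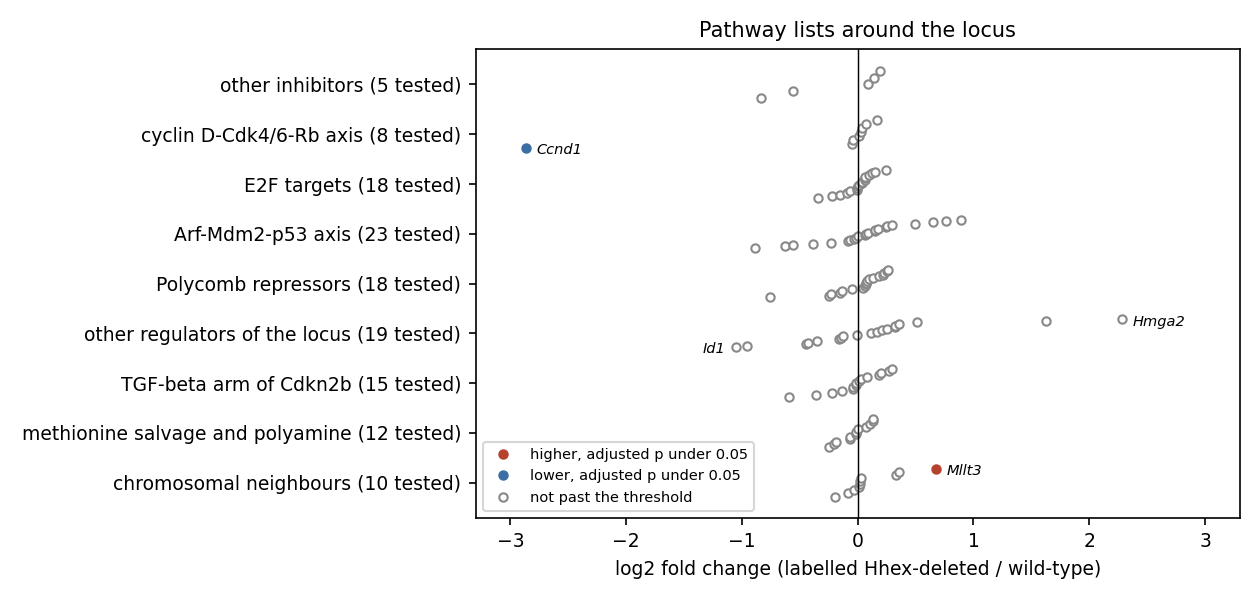
Log2 fold change of labelled Hhex-deleted over wild-type (horizontal axis) for each tested gene of the 8 pathway lists and the chromosomal neighbours. Filled points passed the test, which only Ccnd1 (-2.87) and Mllt3 (0.68) did, and Hmga2 (2.28) is the open point farthest to the right.

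Genes taken as markers of other cells that a sort can hold moved in the same comparison. By edgeR 1.48% of all tested genes were called higher and 2.6% in either direction. The counts of called markers, here and in the next paragraph, are to be read against these shares. Of 10 B precursor markers 9 were called higher, with a summed level of 634 and 905 CPM in libraries labelled as Hhex-deleted and 180 and 202 CPM in wild-type ones. Most of these sums came from Dntt, with 475 and 698 CPM in libraries labelled as Hhex-deleted and 134.5 and 152.5 CPM in wild-type ones. Of 9 mast cell and basophil markers 8 were tested and 5 called higher, with sums of 1432 and 1258 CPM in libraries labelled as Hhex-deleted and 568 and 536 CPM in wild-type ones. Cpa3 alone had 578 and 533 CPM in libraries labelled as Hhex-deleted and 125.5 and 106 CPM in wild-type ones. Hdc went the other way (114 and 75.7 against 119 and 149 CPM), as did Tpsb2, which was under 1 CPM in every library. Of 10 macrophage markers 4 were called higher and 1 lower, and their sums were 139 and 112 CPM in libraries labelled as Hhex-deleted and 169 and 189 CPM in wild-type ones. Members of this list went both ways. C1qa, a complement gene of macrophages, had 7.47 and 6.20 CPM in libraries labelled as Hhex-deleted and 1.75 and 1.09 CPM in wild-type ones. Vcam1, an adhesion molecule gene, had 22.3 and 23.5 CPM in libraries labelled as Hhex-deleted and 54.1 and 74.9 CPM in wild-type ones, and Csf1r, the receptor gene for a macrophage growth factor, had 44.1 and 19.0 CPM in libraries labelled as Hhex-deleted, against 72.3 and 73.3 CPM in wild-type ones.

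Of 8 stromal markers 4 were tested and none called, and the sums of all 8 were 82.5 and 109 CPM in libraries labelled as Hhex-deleted and 93.4 and 90.4 CPM in wild-type ones, with Col1a1, Col3a1, Pdgfra and Lepr under 1 CPM in every library. Of 9 T and natural killer markers 4 were tested, of which 1 was called lower, and Cd3e, Cd3d, Cd3g, Trac, Cd8a and Ncr1 were under 1 CPM in every library. Of 9 mature neutrophil markers 1 was called higher, and their sums ran from 107 to 480 CPM in libraries labelled as Hhex-deleted and from 500 to 1024 CPM in wild-type ones. No erythroid or megakaryocyte marker was called, with sums of 559 to 619 and 483 to 671 CPM in libraries labelled as Hhex-deleted and 424 to 435 and 404 to 466 CPM in wild-type ones. The part of these cells in the reads of Cdkn2a, Cdkn2b and Mtap was not tested. Whether the sorted progenitors themselves express these markers was not tested either.

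The genes with the most similar levels were found by the largest difference in log2(CPM + 0.1) over the 4 libraries. The match covers both groups, so it picks genes that share the group difference of the matched gene. Their calls largely follow from the match and are no separate support, although only 1.48% of all tested genes were called higher by edgeR. For Cdkn2a these were Ubd, which encodes a ubiquitin-like protein, Tafa4, a secreted protein gene, Chp2, Frem1 and Pmp22, a myelin protein gene, with largest differences of 0.45 to 0.59. Ubd had 23 and 19 reads in libraries labelled as Hhex-deleted, against 2 and 2 in wild-type ones. Of these 5 genes Ubd, Tafa4 and Chp2 passed the test (edgeR adjusted p = 0.042, 0.0227 and 0.0354). The calls of Ubd and Chp2 were lost whichever library was left out (0.084 to 0.266 and 0.0649 to 0.157), with limma-voom (0.0608 and 0.06) and with the replicate block, and that of Ubd also with DESeq2 (0.104). The Tafa4 call was lost with the block (0.0502) and when any library but labelled Hhex-deleted replicate 1 was dropped (0.0575 to 0.136). For Cdkn2b they were an unnamed gene with Entrez identifier 100502594, Myom2, Prlr, the prolactin receptor gene, Tafa4 and Cd209f, a lectin gene, with largest differences of 0.45 to 0.77. Of these the unnamed gene, Tafa4 and Cd209f passed (0.0434, 0.0227 and 0.0407, edgeR adjusted p). The unnamed gene and Cd209f lost their calls whichever library was left out (0.0612 to 0.148 and 0.076 to 0.282) and with the block (0.0896 and 0.0688), and Cd209f also with DESeq2 (0.0899) and limma-voom (0.0612). Every gene in both lists had at most 4 reads in each wild-type library.

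For Mtap the nearest genes were Rasa1, a brake on Ras signalling, Zfp664, Dtnbp1, Kif2a, a kinesin gene, and Irgm1, an interferon-induced GTPase gene, within 0.16 to 0.20, of which Dtnbp1 and Irgm1 passed (edgeR adjusted p = 0.0491 and 0.0291). Both calls were lost with limma-voom (0.08 and 0.0546) and when a wild-type library was dropped (0.149 to 0.241), that of Dtnbp1 also without labelled Hhex-deleted replicate 1 (0.0628) and with the block (0.0629), and that of Irgm1 without labelled Hhex-deleted replicate 2 (0.0558). Such likeness was common, since 2953 tested genes were within 1 log2 unit of Mtap in every library, against 34 for Cdkn2a and 18 for Cdkn2b.

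With 2 libraries a group, an exact two-sided permutation test of 1 gene cannot go below p = 0.333, so the calls rest on spread shared across genes in the fit. With the Xist-high library (labelled Hhex-deleted replicate 1) left out, Cdkn2a had a log2 fold change of 3.96 (edgeR adjusted p = 0.0481), Cdkn2b 5.11 (0.0579) and Mtap 0.62 (0.0208). The Cdkn2a call ended when any other library was dropped, at an edgeR adjusted p of 0.0502 for labelled Hhex-deleted replicate 2, 0.105 for wild-type replicate 1 and 0.123 for wild-type replicate 2. Cdkn2b lost it whichever library was left out (0.0579 to 0.199) and with DESeq2 (0.0608). The Mtap call was kept without either library labelled Hhex-deleted and lost when a wild-type library was dropped (0.0914 for replicate 1, 0.145 for replicate 2). The direction of all 3 was the same in every setting tried.

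**Figure D5:**
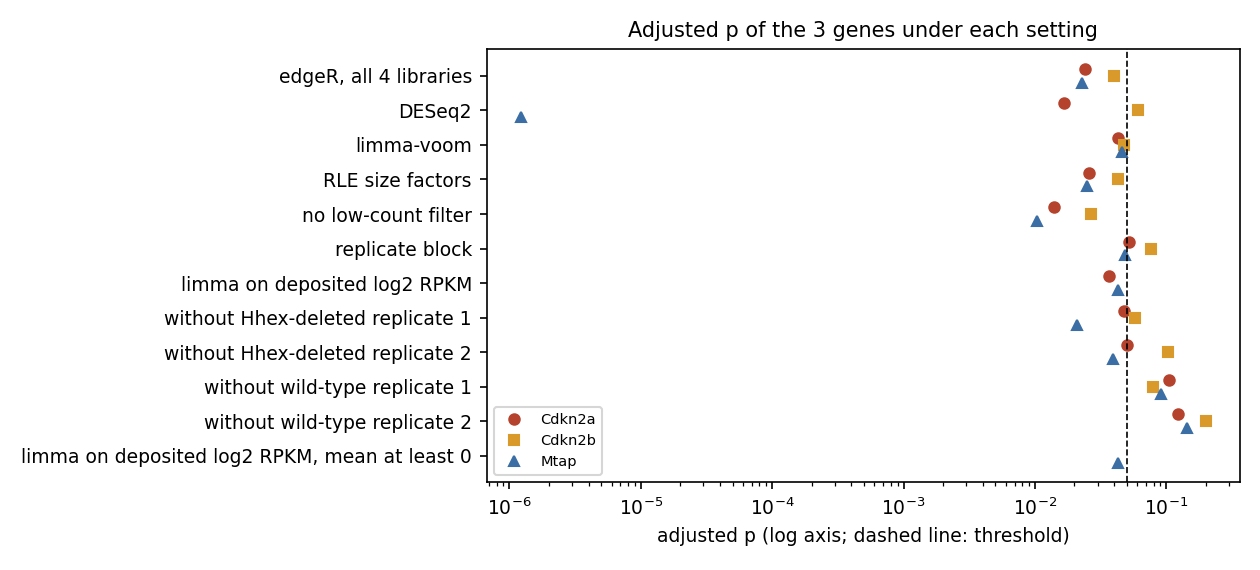
Adjusted p (log axis, dashed line at 0.05) of Cdkn2a, Cdkn2b and Mtap under each setting. For Cdkn2a, limma on log2 RPKM used equal values in both wild-type libraries. Points right of the line are lost calls, which come with a left-out library for all 3 genes, with DESeq2 for Cdkn2b (0.0608) and with the replicate number as a block for Cdkn2a (0.0524) and Cdkn2b (0.0764).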

How the data were processed

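The authors deposited raw read counts per Entrez gene for 4 libraries and, per library, log2 RPKM values. Subread, featureCounts, limma and build mm9 are named in the submitters' processing notes; no source used here states the strand setting, the handling of multiple matches or any filter. After gene length was added back, sorted log2 RPKM values of the 4 libraries lay within a median of 8.09e-04 of each other, and counts were used for all main results. Counts were tested in R 4.3.3 with edgeR 4.0.16 (filterByExpr at its defaults of 10 counts and a total of 15, TMM, robust quasi-likelihood fit on group alone), for labelled Hhex-deleted over wild-type, with Benjamini-Hochberg adjustment over 14912 genes and calls made under 0.05. The common coefficient of variation between libraries of a group, beyond counting error, was 16.3%. The SE is the log2 fold change divided by the square root of F. CPM and RPKM use TMM-scaled library sizes and the deposited gene lengths. Read intervals are exact Poisson, shares exact binomial and pooled ratios exact conditional binomial, at 95%, with a floor of 3 counts; they cover counting error only. DESeq2 1.42.0, limma-voom (limma 3.58.1), RLE scaling, no low-count filter, a replicate block, limma on the log2 RPKM values and leaving out each library were alternatives. The edgeR step was tested on simulated counts. Libraries were compared pairwise by chi-square over genes (28.5 or more per degree of freedom), so none was a copy of another.

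Symbols came from RefSeq (GRCm38.p6) for 24176 identifiers and from the deposited tables for 79; 2031 identifiers with 3.00% of the counts had none and stayed in. The reference differs in build from mm9, so it served only for names, gene order and the sequences shown. The 3 genes and all lists were chosen with earlier results of these data known, so no list is independent evidence. Named are, with 1 exception in a list that is not reported here, the 3 genes, Hhex, the 4 members of each list with the smallest unadjusted p (all members of lists of 8 or fewer), the neighbours and the 5 most similar genes. The marker genes named are examples chosen after their values were seen. All 199 list entries matched a symbol.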

Additional observations from a re-analysis of the deposited data

How the results depend on the processing

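Under every alternative run, Cdkn2a, Cdkn2b and Mtap kept their direction. Replicate numbers are shared between groups, and the labels do not state pairing. The differences between replicates of both groups correlated at 0.326 across 14912 genes, so part of the replicate difference was shared by number. Cdkn1a was higher in replicate 1 of both groups (32.7 against 16.0 CPM in labelled Hhex-deleted, 56.1 against 15.7 CPM in wild-type). Whether libraries with the same number were paired was not tested, so the fit with a block is given beside the main one. With the replicate number as a block the log2 fold change was 4.06 for Cdkn2a (edgeR adjusted p = 0.0524) and 4.96 for Cdkn2b (0.0764), so that both calls were lost, and 0.58 for Mtap (0.0483). DESeq2 gave 5.28 for Cdkn2b (adjusted p = 0.0608). With each library left out in turn, the log2 fold changes ran from 3.70 to 4.57 for Cdkn2a, 4.10 to 7.35 for Cdkn2b and 0.54 to 0.62 for Mtap. Genes past the threshold numbered 388, against 988 with DESeq2, 202 with limma-voom, 179 with limma on the deposited log2 RPKM, and 124 to 597 with a library left out.

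Of the lists, DESeq2 called 1 gene of the p53 list, 1 Polycomb gene and 2 other regulators, and the fit with no low-count filter called 1 Polycomb gene. Of the neighbours 0 were called with limma-voom, the block or limma on log2 RPKM, and DESeq2 called 1. In the main edgeR fit 2 of 10 had an unadjusted p under 0.05, against 15.8% of all tested genes. Leaving out a library gave 0 to 1 call for the cyclin, p53 and neighbour lists and 0 to 2 for other regulators. Cdkn1a, at -0.56 with all libraries, ran from -1.20 to 0.64 with a library left out and was positive without wild-type replicate 1. Other genes that changed sign with a library left out had log2 fold changes between -0.08 and 0.09 with all libraries. Their ranges were -0.011 to 0.20 for Cdkn2d, -0.10 to 0.0096 for Cdk6, -0.12 to 0.038 for Cdk4, -0.044 to 0.13 for Ccnd3, -0.025 to 0.091 for Rbl1, -0.25 to 0.23 for Ccnd2, -0.16 to 0.0083 for Acer2, -0.0003 to 0.060 for Gm12669, -0.16 to 0.095 for Klhl9, -0.0036 to 0.053 for Caap1, -0.036 to 0.059 for Plaa and -0.20 to 0.21 for Hacd4. Ccnd2 was also -0.012 with limma-voom and -0.012 with the block. The causes of these changes were not tested. At these depths 1 wild-type read moves the Cdkn2a and Cdkn2b ratios widely, and a fold change from a level under 0.1 CPM cannot be set closely.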
